A study of Mus musculus with 11 samples.

Results

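The 9 genes described here, Vpreb1, Vpreb2, Vpreb3, Igll1, Dntt, Rag1, Rag2, Pax5 and Cd79b, are expressed in pro-B and pre-B cells, the stages at which B lymphocytes form in bone marrow. They were picked by gene symbol out of the 22600 genes of a merged table of read pair counts, and all 9 were found there and passed the filter on low counts. RNA came from whole distal tibiae, cut at the junction of tibia and fibula, and each library is 1 mouse, of which 4 were Control and 7 BMAd-DTA. The comparison of the groups asks how the marrow changed after loss of bone marrow adipocytes (BMAds).

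In BMAd-DTA mice, Cre recombinase removes a stop cassette from a diphtheria toxin A gene in the Rosa26 locus, so that cells with Cre activity die. Cre is made from the adiponectin locus, and only where an FLPo recombinase, driven by the Osterix gene, has switched it on. Control mice, labelled BMAd-WT, carried the Osterix-FLPo and FLPo-dependent Adipoq-Cre alleles too, and their label names no toxin allele. All 11 mice were 24 weeks old, were of a mixed C57BL6/SJL background and were fed ad libitum. By the study's own account, recombination in BMAds was not complete, and a small subset of the adipogenic stromal precursors of marrow was also reached. The labels do not state the sex of the mice. Xist was counted 13810 to 20260 times in each library and 4 Y-linked genes together at most 1 time, whereas the study describes the mice of the figures with these data as male.

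B lymphopoiesis proceeds by stepwise assembly of the antigen receptor. The Rag1 and Rag2 proteins together cut DNA beside antigen receptor gene segments, and terminal deoxynucleotidyl transferase, the product of Dntt, adds bases at the joins of the heavy chain. A finished heavy chain is then brought to the surface of the pre-B cell with the surrogate light chain, made of the lambda5 protein (Igll1) and a VpreB protein (Vpreb1 or Vpreb2), and the signal passes through the Cd79a and Cd79b chains. Pax5 is the transcription factor that commits cells to the B lineage. Surrogate light chain genes and Dntt are shut off as cells mature, whereas Pax5, Cd79b and Vpreb3 are also expressed in later B cells.

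Total counts were 16969529 to 18637663 in Control and 17128711 to 18432805 in BMAd-DTA libraries, so depth was alike. Every library held RNA of many cell types. Summed over 12 genes, skeletal muscle transcripts varied between 21.4 and 1449 CPM (counts scaled to library size) in Control and between 24.8 and 1104 CPM in BMAd-DTA mice, and their part in the results below was not tested beyond a fit with a muscle score as covariate. Summed over 10 genes, adipocyte transcripts lay at 1006 to 1695 CPM in Control and 391.8 to 1230 CPM in BMAd-DTA mice. Osteoblast transcripts, also summed over 10 genes, lay at 2850 to 12963 CPM in Control and 15285 to 35968 CPM in BMAd-DTA mice. One library stood apart for the genes described here. BMAd-DTA replicate 3 had the lowest value of all 11 libraries for Vpreb1, Vpreb3, Igll1, Dntt, Rag1 and Rag2, and results are therefore also given without it.

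None of the 9 genes differed between the groups past the threshold. All 9 had a higher fitted level in BMAd-DTA mice, with log2 fold changes of 0.17 to 0.65, but no adjusted p was below 0.337 (edgeR quasi-likelihood test, Benjamini-Hochberg over 16496 genes). The background is low, since 13 genes, 0.0788% of those tested, had an adjusted p under 0.05. An unadjusted p under 0.05 was found for 16.4% of all tested genes and for 0 of the 9. The groups did not overlap in CPM for 2.81% of all genes and overlapped for each of the 9. DESeq2 called 5.42% and limma-voom 0.121% of the genes that received an adjusted p, and neither called any of the 9. The median log2 fold change of the 9 genes was 0.33, against 0.0018 over all tested genes, and 12.3% of all genes had a log2 fold change above that median.

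The spread between mice of the same group was large for these genes. The within-group SD of log2 CPM was 0.51 to 1.07, against a median of 0.206 over all genes, and 83.9% to 98.0% of genes varied less than a given member. From the lowest to the highest library, Pax5 varied 3.67-fold and Rag2 11.9-fold. In bulk RNA of this kind, fewer cells of a type and less RNA per cell cannot be told apart.

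**Figure D1:**
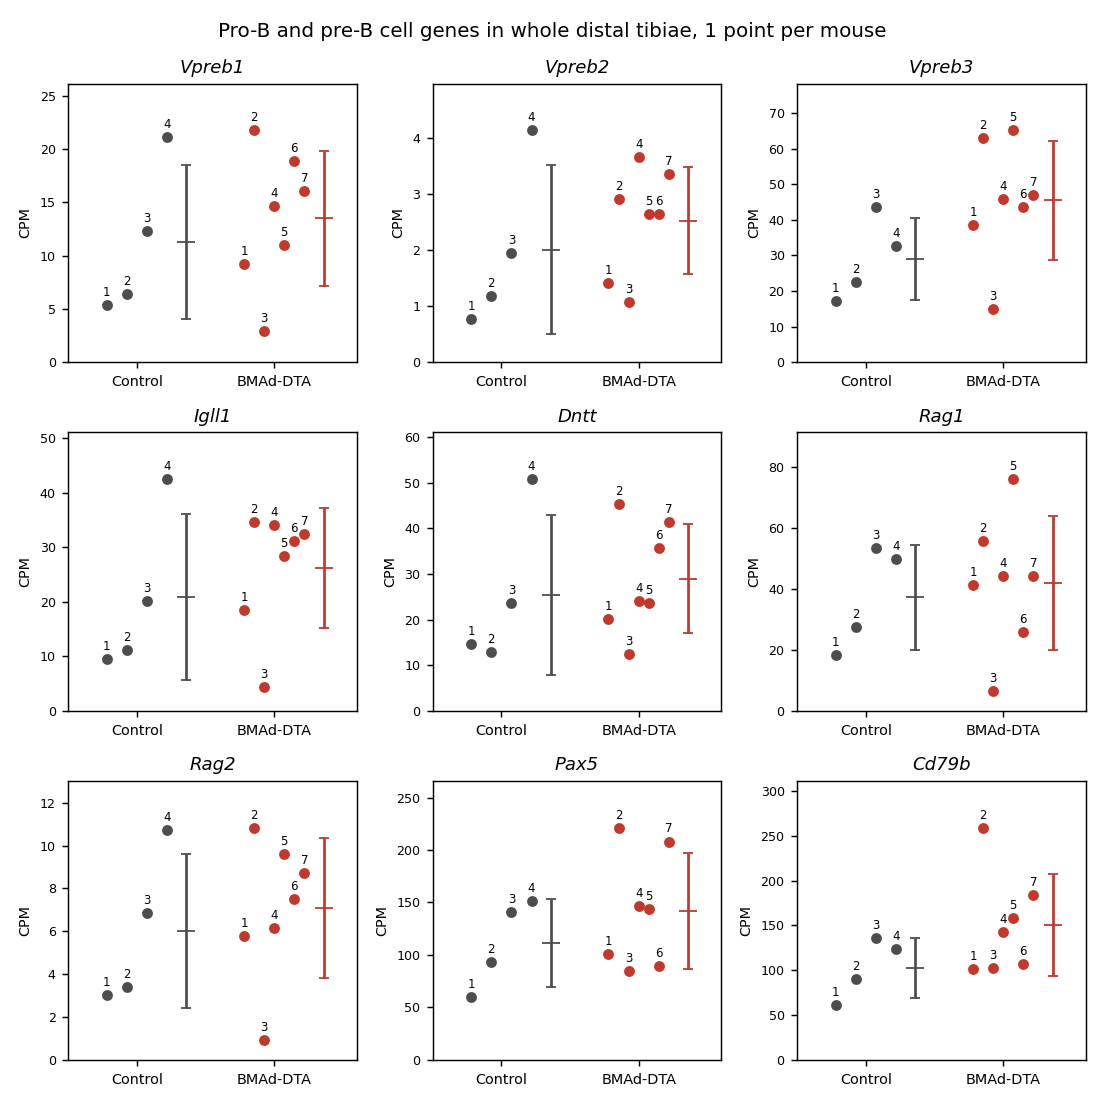
Level of each of the 9 genes in CPM (vertical axes, linear, from 0) in 4 Control (grey) and 7 BMAd-DTA (red) mice, numbered by replicate, with the mean and SD of each group as a bar. The groups overlap for every gene, Control replicates 1 and 2 are low throughout, and BMAd-DTA replicate 3 is the lowest library for 6 of the 9 genes.

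The surrogate light chain genes come first. Igll1 (ENSMUSG00000075370) lies on the minus strand at chr16:16860671-16863985 of GRCm38, and Vpreb1 (ENSMUSG00000059305) lies 4417 bases away on the same strand at chr16:16868403-16870843. Vpreb2 (ENSMUSG00000059280) is on the plus strand of the same chromosome at chr16:17980428-17981273. All are protein-coding. Vpreb1 and Vpreb2 are near-copies of each other, which bears on how well they can be counted apart. Their coding sequences in GENCODE M21 are each 429 bases long and differ at 9 bases (97.9% identical). The first 300 bases are shown here, 5′ to 3′, with the 4 bases that differ between them in capitals.
Vpreb1: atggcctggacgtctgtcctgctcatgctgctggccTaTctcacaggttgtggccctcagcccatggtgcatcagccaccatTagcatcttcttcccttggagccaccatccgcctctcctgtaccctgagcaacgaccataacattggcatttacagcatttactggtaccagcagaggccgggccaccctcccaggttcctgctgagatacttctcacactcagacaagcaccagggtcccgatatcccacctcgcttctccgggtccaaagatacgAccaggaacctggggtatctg
Vpreb2: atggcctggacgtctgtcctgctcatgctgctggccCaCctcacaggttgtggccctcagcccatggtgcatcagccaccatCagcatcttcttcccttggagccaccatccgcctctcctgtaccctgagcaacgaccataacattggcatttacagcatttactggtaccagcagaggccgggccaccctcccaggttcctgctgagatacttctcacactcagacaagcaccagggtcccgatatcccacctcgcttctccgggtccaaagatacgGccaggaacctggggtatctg
Over the whole exons, 97 of 1252 stretches of 100 bases in Vpreb1 (7.75%) occur in Vpreb2 as well, which is 14.7% of the 660 stretches of Vpreb2. None of the other 7 genes shared such a stretch with another gene. Read pairs that fit both places were not counted for either, so the levels of Vpreb1 and Vpreb2 are less certain than the others.

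Vpreb1 was measured at 5.35, 6.36, 12.3 and 21.1 CPM in Control replicates 1 to 4. In BMAd-DTA mice its lowest, median and highest values were 2.95, 14.7 and 21.8 CPM. The BMAd-DTA values thus reached below and above all Control values, by 1 library at each end. Its log2 fold change was 0.26 (SE 0.46, 95% interval -0.72 to 1.24, adjusted p = 0.8293 by edgeR), and an exact two-sided permutation test on log2 CPM gave p = 0.673.

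Vpreb2, the scarcer copy, was at 0.772, 1.18, 1.95 and 4.15 CPM in the 4 Control mice. The lowest, median and highest BMAd-DTA values were 1.08, 2.64 and 3.66 CPM, all within the Control range. The log2 fold change was 0.33 (SE 0.43, interval -0.61 to 1.26, adjusted p = 0.77 by edgeR). Only 14 to 80 read pairs per Control library lay behind these values, the fewest of the 9 genes.

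Igll1 was at 9.53, 11.1, 20.2 and 42.5 CPM in Control and had a lowest, median and highest value of 4.43, 31.1 and 34.7 CPM in BMAd-DTA mice. In 5 of 7 BMAd-DTA mice it exceeded the Control mean, but Control replicate 4 was the highest of all libraries. Its log2 fold change was 0.33 (SE 0.48, interval -0.71 to 1.37, adjusted p = 0.794 by edgeR; exact permutation p = 0.603).

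Vpreb3 (ENSMUSG00000000903, chr10:75943057-75949657, plus strand) encodes a VpreB-like protein that is kept inside the cell and binds the receptor chains there. It was at 17.2, 22.7, 43.5 and 32.6 CPM in Control, and at 14.98, 45.9 and 65.3 CPM as the lowest, median and highest BMAd-DTA values. Its fitted difference was the largest of the 9, with a log2 fold change of 0.65 (SE 0.33, interval -0.07 to 1.37, adjusted p = 0.35 by edgeR; exact permutation p = 0.188). In 5 of 7 BMAd-DTA libraries it lay above every Control library, and in replicate 3 below every Control library.

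For the upstream sequences, 8 of the 9 genes had an entry in RefSeq (GRCm38.p6), Cd79b being the one without. The letters CAGGTG on either strand, an E box form that the B cell factor E2A is known to bind, were present within 250 bases before the start in 4 of 8 genes (Igll1, Rag1, Vpreb1 and Vpreb2) and in 17.2% of all 32851 promoters. Vpreb1 and Vpreb2, near-copies of each other, hold this E box in the same flanking sequence, so they are not separate matches. The stretch searched for Vpreb2 also overlaps an annotated untranslated region of that gene. The octamer ATGCAAAT was present in Vpreb3 (1.6% of all promoters), the Ikaros core TGGGAA in Rag1 and Vpreb2 (21.6%), and a palindromic EBF1 site in 0 of the 8 (0.779%). Each motif was searched separately on both strands and a match is a description of letters, not evidence of a site. The promoters of the linked pair Igll1 and Vpreb1, whose counts kept a steady proportion between mice, are shown 5′ to 3′ on the minus strand, with the E box in capitals. It starts 8 bases before the RefSeq start in Igll1 (chr16:16863986-16864235) and 88 bases before it in Vpreb1 (chr16:16869256-16869505). The latter stretch lies inside the longer GENCODE gene model of Vpreb1.
Igll1: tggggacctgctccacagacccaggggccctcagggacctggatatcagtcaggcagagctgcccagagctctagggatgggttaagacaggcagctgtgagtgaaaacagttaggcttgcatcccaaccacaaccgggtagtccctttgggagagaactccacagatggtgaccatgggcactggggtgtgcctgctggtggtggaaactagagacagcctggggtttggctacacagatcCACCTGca
Vpreb1: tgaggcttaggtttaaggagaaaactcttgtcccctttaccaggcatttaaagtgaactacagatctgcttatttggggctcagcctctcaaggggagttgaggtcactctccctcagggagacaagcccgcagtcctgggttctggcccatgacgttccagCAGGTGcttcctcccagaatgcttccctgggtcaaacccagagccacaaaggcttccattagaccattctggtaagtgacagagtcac

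The genes of receptor gene recombination held both of the widest ranges, 11.9-fold for both recombinase genes from the lowest to the highest library. Rag1 (ENSMUSG00000061311, chr2:101638282-101649501, minus strand) and Rag2 (ENSMUSG00000032864, chr2:101624718-101632529, plus strand) lie 5752 bases apart, and another annotated gene, B230118H07Rik, overlaps both. Read pairs that fell on 2 genes of the counted strand were left out by the counting. B230118H07Rik is on the strand of Rag1, and Mir5120, which overlaps Pax5, is on the strand of Pax5. These overlaps are of whole annotated gene spans, and whether exon counts of Rag1 or Pax5 were lost was not tested.

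Rag1 was at 18.3, 27.4, 53.6 and 49.7 CPM in Control replicates 1 to 4, and its lowest, median and highest BMAd-DTA values were 6.41, 44.2 and 76.2 CPM. The BMAd-DTA range enclosed the Control range. Its log2 fold change of 0.17 (SE 0.47, interval -0.84 to 1.18, adjusted p = 0.898 by edgeR) was the smallest of the 9. On log2 CPM the exact permutation p was 0.988. With limma-voom the log2 fold change was 0.02 and with the muscle score as covariate 0.08.

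Rag2 was at 3.03, 3.42, 6.85 and 10.7 CPM in Control, against 0.908, 7.51 and 10.8 CPM as the lowest, median and highest values in BMAd-DTA mice. The lowest came from 16 read pairs in replicate 3. Its log2 fold change was 0.23 (SE 0.49, interval -0.82 to 1.28, adjusted p = 0.859 by edgeR; exact permutation p = 0.873).

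Dntt (ENSMUSG00000025014, chr19:41029275-41059525, plus strand) was at 14.6, 13.0, 23.6 and 50.8 CPM in Control, with Control replicate 4 the highest of all libraries. In BMAd-DTA mice its lowest, median and highest values were 12.5, 24.1 and 45.2 CPM, and 3 of 7 exceeded the Control mean. The log2 fold change was 0.18 (SE 0.39, interval -0.66 to 1.03, adjusted p = 0.865 by edgeR; exact permutation p = 0.536). Its direction turned when either Control replicate 1 (log2 fold change -0.01) or Control replicate 2 (-0.04) was left out. Rag1 likewise turned without Control replicate 1 (-0.05) or BMAd-DTA replicate 5 (-0.04).

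Pax5 and Cd79b, whose expression continues in mature B cells, had the smallest within-group SD of log2 CPM, 0.58 and 0.51. Pax5 (ENSMUSG00000014030, chr4:44524757-44710487, minus strand) was at 60.3, 93.5, 141 and 151 CPM in Control. Its lowest, median and highest BMAd-DTA values were 84.4, 144 and 221 CPM, with 2 of 7 libraries above all Control libraries. The log2 fold change was 0.35 (SE 0.30, interval -0.31 to 1.01, adjusted p = 0.621 by edgeR; exact permutation p = 0.391).

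Cd79b (ENSMUSG00000040592, chr11:106311341-106314762, minus strand) was at 61.0, 90.3, 136 and 123 CPM in Control and at 102, 142 and 259 CPM as the lowest, median and highest BMAd-DTA values. In 4 of 7 BMAd-DTA libraries it was above, and in 0 below, all Control libraries. The log2 fold change was 0.55, which is 1.47-fold, with an interval of 0.971-fold to 2.22-fold (SE 0.28, adjusted p = 0.337 by edgeR; exact permutation p = 0.133). The fold intervals of the other 8 genes reached from between 0.56-fold and 0.953-fold to between 2.01-fold and 2.58-fold.

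Per length of exon, as mean CPM per kilobase over the 11 libraries, Cd79b was the highest at 93.1 and Vpreb3 followed at 46.0. Pax5 (14.8), Dntt (12.1), Igll1 (11.2) and Vpreb1 (10.6) lay close together, within less than the spread of each between mice. Rag1 (6.10), Vpreb2 (3.09) and Rag2 (1.95) were lowest on this scale. The rank of Vpreb2 is uncertain because of the pairs it shares with Vpreb1.

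Single libraries set much of the group means. Without BMAd-DTA replicate 3 the log2 fold change was 0.44 for Vpreb1, 0.46 for Vpreb2, 0.80 for Vpreb3, 0.51 for Igll1, 0.31 for Dntt, 0.36 for Rag1, 0.43 for Rag2, 0.45 for Pax5 and 0.63 for Cd79b. None of these passed the threshold either, and the smallest adjusted p was 0.163, for Vpreb3 (edgeR). Control replicate 4, the highest library for Dntt, Igll1 and Vpreb2, acted in the same direction. Without it the log2 fold change was 0.76 for Vpreb1, 0.96 for Vpreb2, 0.94 for Igll1, 0.76 for Dntt and 0.67 for Rag2, again with no call. Without Control replicate 1 those of Vpreb1, Vpreb2, Igll1 and Rag2 came to 0.03, 0.06, 0.09 and 0.01, and without Control replicate 2 to 0.06, 0.14, 0.12 and 0.04. Over all 11 omissions the median of the 9 genes ran from 0.06, without Control replicate 1, to 0.71, without Control replicate 4.

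**Figure D2:**
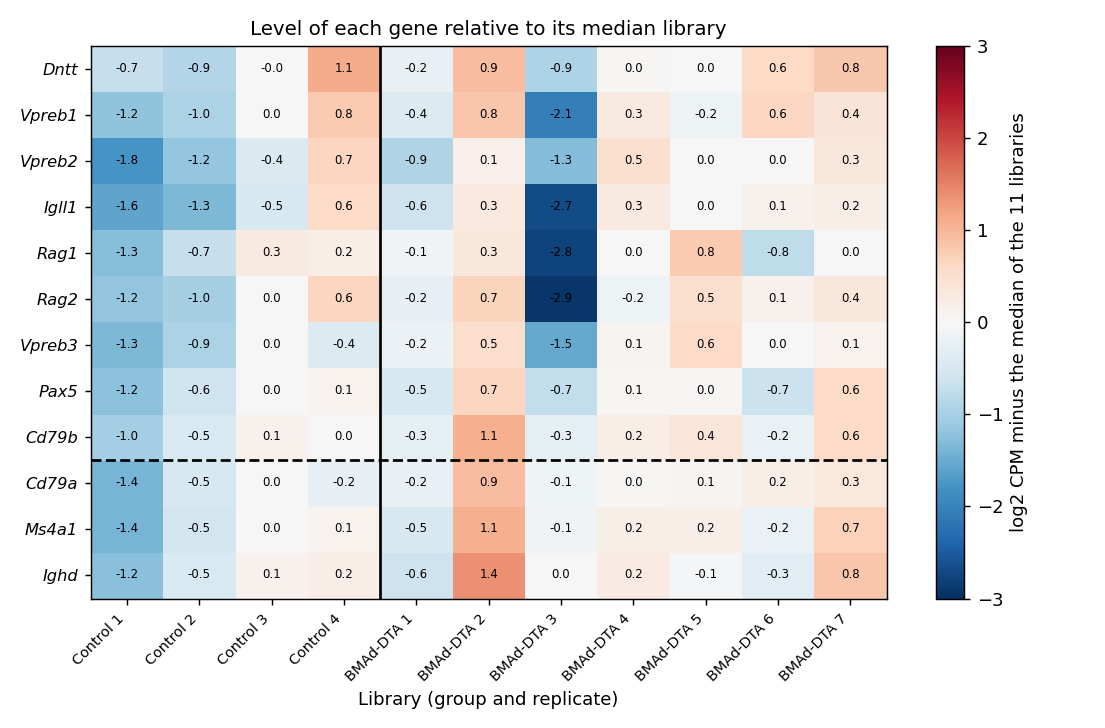
Log2 CPM of each gene minus its median over the 11 libraries, with libraries in columns (4 Control left of the solid line, 7 BMAd-DTA right of it) and genes in rows, the 9 genes above the dashed line and Cd79a, Ms4a1 and Ighd below it. Control replicates 1 and 2 are low for all 12 genes, whereas BMAd-DTA replicate 3 is low for Igll1, Rag1 and Rag2 and near the median for Ms4a1 and Ighd.

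The levels of the 9 genes were correlated from mouse to mouse. Over the 36 pairs of genes, Pearson's r of log2 CPM across the 11 libraries ran from 0.596 (Rag1 and Cd79b) to 0.973 (Vpreb1 and Igll1), with a median of 0.79. After removal of each group's mean the range was 0.628 to 0.973, and without BMAd-DTA replicate 3 it was 0.473 to 0.977. Without the 2 libraries farthest from the median of the first gene of a pair it was 0.22 to 0.962, with the lowest values for Rag1 with Vpreb1 (0.22), Vpreb2 (0.384) and Igll1 (0.407), so that these relations rested on few libraries. These values are given as a description, without a test, because every pair is read from the same 11 tissue pieces. Vpreb1 and Igll1, next to each other on the chromosome and partners in the same surrogate light chain, kept the steadiest of the 4 proportions examined among early genes, with 49.6 to 60.8 Vpreb1 counts per 100 Igll1 counts in Control and 38.9 to 66.7 in BMAd-DTA mice. The 2 recombinase genes were looser, with 12.4 to 21.6 Rag2 counts per 100 Rag1 counts in Control and 12.6 to 28.9 in BMAd-DTA mice. The proportion of Dntt to Rag1 was the least steady of the 4, at 44.1 to 102 Dntt counts per 100 Rag1 counts in Control and 31.0 to 195 in BMAd-DTA mice.

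Counts relative to Cd79b in the same library separate the early genes from B lineage RNA as a whole. Igll1 gave 12.3 to 34.5 counts per 100 Cd79b counts in Control. In BMAd-DTA mice it gave 13.4 to 28.9 in 6 libraries and 4.33 in replicate 3. Rag1 gave 30.02 to 40.3 counts per 100 Cd79b counts in Control, 21.5 to 47.9 in 6 BMAd-DTA libraries and 6.27 in replicate 3. Rag2 gave 3.78 to 8.70 in Control, 4.18 to 6.998 in the same 6 libraries and 0.888 in replicate 3. BMAd-DTA replicate 3 was therefore low in early B cell transcripts while its Cd79b level, at 102 CPM, was like that of replicates 1 and 6 (102 and 107 CPM). Of the mature B cell markers read in each library, Ms4a1 and Ighd were inside the range of the other BMAd-DTA mice and Cd37 was just below it, at 245 CPM against a next lowest value of 249 CPM. Ms4a1, which encodes CD20, was at 65.2 CPM against 50.1 to 145 CPM in the other 6, and Ighd, the IgD heavy chain, at 205 CPM against 132 to 529 CPM.

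Between the groups, none of 13 such ratios had an adjusted exact permutation p under 0.05, which does not show that the ratios were alike. The smallest p was that of Pax5 to Cd79b, with 98.9 to 123 Pax5 counts per 100 Cd79b counts in Control and 82.6 to 113 in BMAd-DTA mice (exact permutation p = 0.097, 0.799 after Benjamini-Hochberg adjustment over the 13 ratios). For the early genes Igll1, Vpreb1, Dntt, Rag1 and Rag2, the difference in log2 ratio to Cd79b, BMAd-DTA minus Control, was -0.18, -0.27, -0.25, -0.52 and -0.40, with exact permutation p of 0.773, 0.561, 0.47, 0.355 and 0.597. The ratio of Vpreb3 to Cd79b differed by 0.08 (exact permutation p = 0.818). The size of the negative values of the early genes depended largely on BMAd-DTA replicate 3, and least for Dntt. Without it, the differences were 0.13 for Igll1, -0.02 for Vpreb1, -0.15 for Dntt, -0.20 for Rag1, -0.03 for Rag2 and 0.24 for Vpreb3. Their exact permutation p lay between 0.21 and 0.91. The sign for Igll1 turned and those for Dntt and Rag1 stayed negative, whereas Vpreb1 and Rag2 kept a negative sign only at -0.02 and -0.03.

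**Figure D3:**
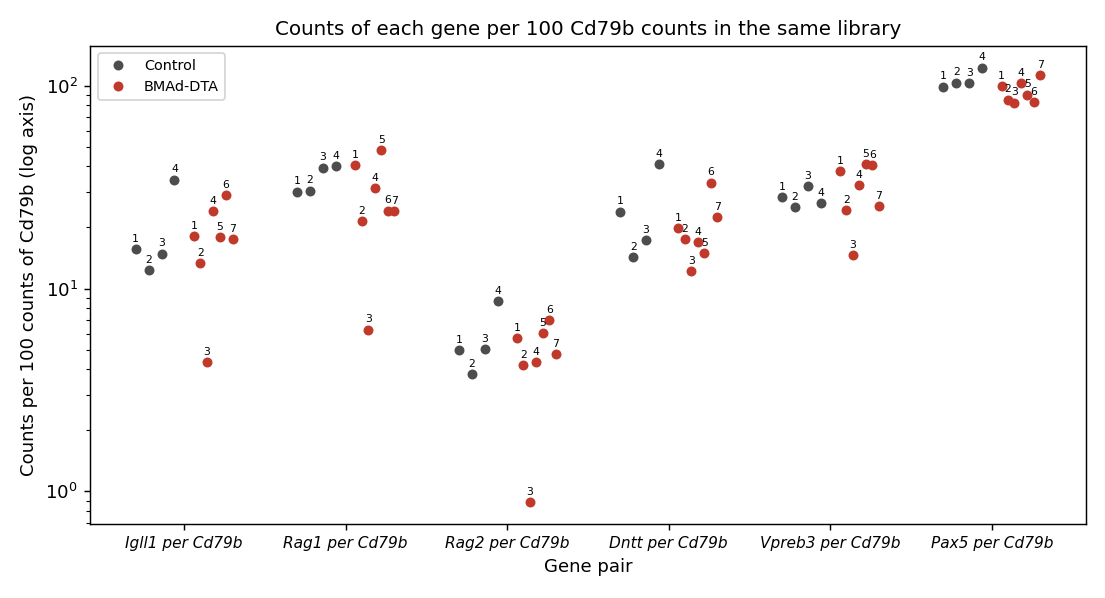
Counts of 6 genes per 100 counts of Cd79b in the same library (vertical axis, log scale) in 4 Control (grey) and 7 BMAd-DTA (red) mice, numbered by replicate. The groups overlap for each ratio, and BMAd-DTA replicate 3 is lowest for Igll1, Rag1, Rag2, Dntt, Vpreb3 and Pax5, at 0.888 for Rag2.

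Other genes of the early B cell programme were read as a list of 32, all of which were tested. In BMAd-DTA mice, 20 of them were fitted higher and 12 lower, 0 were called, and the median log2 fold change was 0.04. An unadjusted p under 0.05 was found for 3 of the 32, against 16.4% of all tested genes. The highest was Cd79a, the partner of Cd79b, at 206 CPM in Control and 325 CPM in BMAd-DTA mice on average (log2 fold change 0.66, SE 0.25, adjusted p = 0.207 by edgeR). The lowest was Cd24a, a surface antigen shared with other immature blood cells (log2 fold change -0.31, SE 0.12, adjusted p = 0.223 by edgeR). Of the factors that act with Pax5, Ebf1 had a log2 fold change of 0.19 (SE 0.17), Foxo1 of 0.15 (SE 0.13) and Tcf3, which encodes E2A, of -0.11 (SE 0.10). Il7r, the receptor for the main growth factor of pro-B cells in the mouse, had 0.23 (SE 0.23). Lef1, a factor of the pro-B stage, had 0.41 (SE 0.19, adjusted p = 0.29 by edgeR). None of them passed the threshold.

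Factors of the stromal niche on which pro-B cells depend were read as a list of 13. Il7 itself was at 10.6 CPM in Control and 10.7 CPM in BMAd-DTA mice (log2 fold change 0.02, SE 0.20). Cxcl12, the chemokine that holds B precursors in marrow, was at 3357 and 3404 CPM (log2 fold change 0.02, SE 0.18). Both changed sign when single libraries were left out. Lepr, a marker of the stromal cells that make these factors, was at 268 CPM in Control and 192 CPM in BMAd-DTA mice (log2 fold change -0.48, SE 0.17, adjusted p = 0.182 by edgeR), and Tnfsf11 was highest at 0.35 (SE 0.25). Galectin-1 (Lgals1), a ligand of the pre-B cell receptor, had a log2 fold change of 0.35 (SE 0.10, adjusted p = 0.113 by edgeR). No gene of this list was called by edgeR. DESeq2 called Lgals1, and it called 5.42% of all genes that received an adjusted p.

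The 12 partners of recombination, which repair the cut DNA or bend it for the recombinase, were fitted higher in 4 cases and lower in 8, around a median of -0.06, and 0 were called by edgeR and 1, Hmgb2, by DESeq2. Hmgb2 was lowest at -0.26 (SE 0.08, adjusted p = 0.113 by edgeR and 0.0255 by DESeq2), with every BMAd-DTA library below every Control library. The groups did not overlap in CPM for 2.81% of all tested genes. Polm, a polymerase related to Dntt, was highest at 0.31 (SE 0.16). Large pre-B cells divide, as do many other marrow precursors, and 13 proliferation genes were read for that reason. All 13 had a lower fitted level, from Mki67 (-0.56) to Pcna (-0.19). An unadjusted p under 0.05 was found for all 13, against 16.4% of all tested genes. By edgeR 0 were called and by DESeq2 10, against 0.0788% and 5.42% of all genes that received an adjusted p. In RNA of whole distal tibiae these transcripts come from all dividing cells, and their part here was not tested.

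Mature B cell genes had the same direction as the 9 genes. All 13 listed were higher in BMAd-DTA mice by fitted level, 0 were called, and the median log2 fold change was 0.52, from Cd72 (0.01, and below 0 in limma-voom and in the fit with the muscle score) to Fcer2a (0.69), the IgE receptor of mature B cells. Summed CPM was 626 to 1185 in Control and 861 to 2160 in BMAd-DTA mice, so that the groups overlapped. The 10 tested T cell genes were also all higher by fitted level, with a median of 0.46, from Lck (0.26) to Cd8b1 (0.89). Of these 10 genes, 6 had an unadjusted p under 0.05, against 16.4% of all tested genes, and 0 were called. Their sum was 99.9 to 163 CPM in Control and 149 to 215 CPM in BMAd-DTA mice. Ptcra, a thymocyte gene of the list, was not analysed here. Plasma cell genes ranged from Xbp1 (0.12) to Tnfrsf17 (0.70), with 7 of 7 higher and 0 called, and summed to 916 to 4870 CPM in Control and 1883 to 5058 CPM in BMAd-DTA mice.

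**Figure D4:**
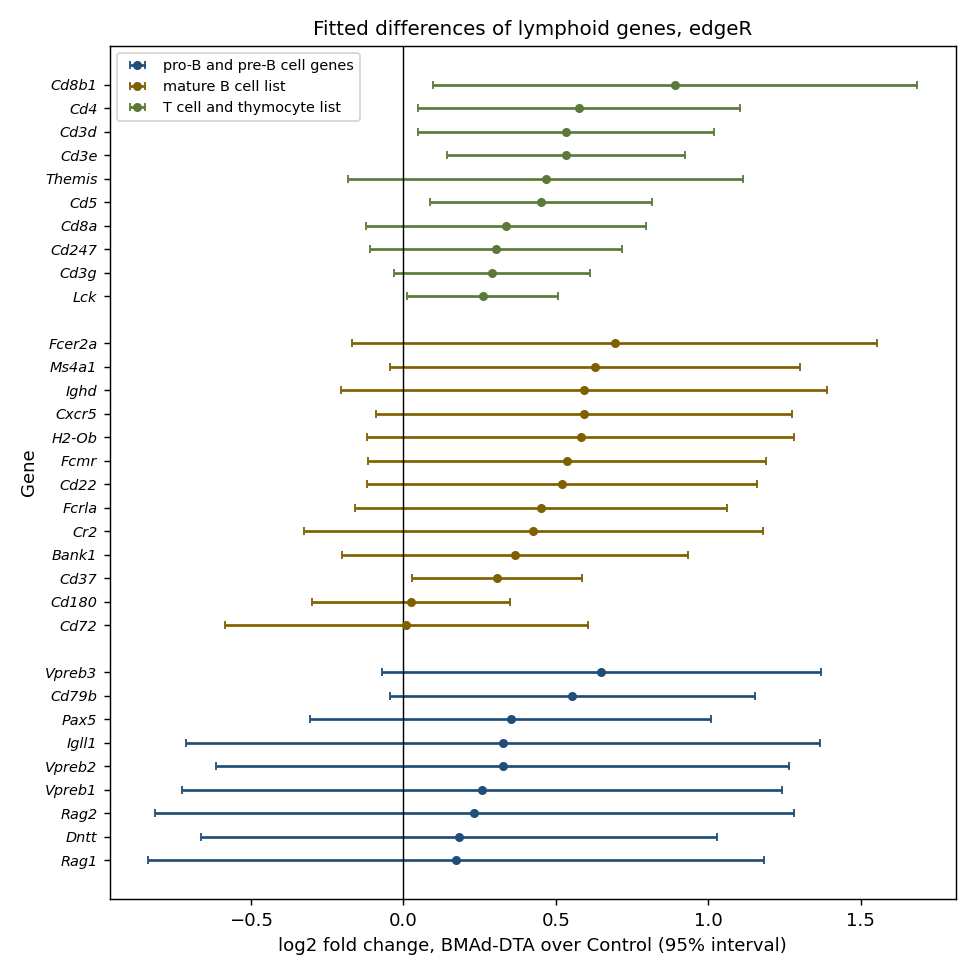
Log2 fold change of BMAd-DTA over Control by edgeR (points) with the 95% interval (bars) for the 9 pro-B and pre-B cell genes (blue), 13 mature B cell genes (brown) and 10 T cell genes (green). All points are above 0, from 0.01 for Cd72, which was below 0 in limma-voom, to 0.89 for Cd8b1, and the intervals of all 9 pro-B and pre-B cell genes include 0.

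Among 11 stem and progenitor genes, 4 were higher and 7 lower by fitted level, 0 were called, and the median was -0.02, from Hlf (-0.25) to Flt3 (0.19), the receptor carried by the lymphoid-primed progenitors. Plasmacytoid dendritic cells also express Dntt and Rag genes in part, and their 8 listed genes ranged from Bst2 (-0.08) to Klk1 (0.44) with 0 called and sums of 369 to 464 CPM in Control and 385 to 465 CPM in BMAd-DTA mice. Neutrophil genes, from Ltf (-0.13) to Mpo (0.10), had 0 calls of 10. The 6 tested erythroid genes were all lower by fitted level, with 0 calls by edgeR and 4 by DESeq2, and Klf1 was not analysed here. DESeq2 called 5.42% of all genes that received an adjusted p. Muscle genes ranged from Myh1 (-1.76) to Myh2 (-0.22) with 0 calls of 12. Adipocyte genes ranged from Adrb3 (-1.70) to Pparg (-0.41), all 10 lower by fitted level, and the hormone gene Retn fell (log2 fold change -1.38, SE 0.17, adjusted p = 0.0205 by edgeR). This call was lost without Control replicate 1 (adjusted p = 0.0889) or 2 (0.0649) or BMAd-DTA replicate 1 (0.0526) or 6 (0.0515). Osteoblast genes ranged from Runx2 (0.26) to Col1a1 (1.35), all 10 higher by fitted level, and alkaline phosphatase, Alpl, rose (log2 fold change 1.16, SE 0.17, adjusted p = 0.0326 by edgeR). The call of Alpl was lost with the muscle score as covariate (adjusted p = 0.0672) and without Control replicate 1 (0.0889) or 2 (0.129) or BMAd-DTA replicate 1 (0.056), 4 (0.0547) or 6 (0.0556). The share of any of these cell types in the values of the 9 genes was not tested.

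Of 14882 genes with a mean of at least 1 CPM, those whose log2 CPM followed the mean standardised level of the 9 genes most closely over the 11 libraries were Cplx2 (r = 0.97), Gm5141 (0.968), Pou2af1 (0.955), Dpp4 (0.941), Plekha2 (0.938), Lrmp (0.933), Bfsp2 (0.931), B130034C11Rik (0.927), Snn (0.927) and Cd83 (0.926). Pou2af1 encodes a coactivator of octamer factors in B cells and Cd83 a surface protein of lymphocytes and dendritic cells. Their mean levels ran from 1.40 CPM for B130034C11Rik to 132 CPM for Lrmp, and none of the 10 was called between the groups. With group means removed 7 of these 10 stayed among the top 10, and with Spearman's rank correlation 6 did. The likeness is a description over 11 libraries, among them BMAd-DTA replicate 3, and has no test.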

How the data were processed

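The authors checked the reads (100-base pairs, strand-specific mRNA libraries) with FastQC 0.11.9, aligned them to mm10 with STAR and deposited whole counts of read pairs, not normalized, both library by library and merged into 1 table. They tested genotype with DESeq2. The counter and the annotation release are not given in the sources used here. In all 11 libraries, the merged values are those of the read-strand column. Multimapping pairs (6.68% to 9.07% of a library) and ambiguous pairs (1.49% to 1.70%) are not in these counts and were left out of library sizes.

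The count test was that of edgeR 4.0.16 under R 4.3.3 (filter by filterByExpr, TMM scaling, quasi-likelihood test, two-sided, Benjamini-Hochberg over 16496 genes, adjusted p under 0.05), with genotype as the factor. CPM was taken relative to the TMM-scaled library size. Exact permutation tests ran over log2 CPM (prior count 2) for single genes and over log2 ratios of counts for the ratios. With 11 libraries they took all 330 arrangements, so that 0.00303 is the smallest p they can give. The ratio tests without BMAd-DTA replicate 3 took all 210 arrangements of the other libraries. Alternatives were DESeq2 1.42.0, limma-voom (limma 3.58.1), other scalings and filters, unstranded counts, a muscle score as covariate and each library left out. The steps were tested on simulated data. Symbols were joined to GENCODE M21 on GRCm38 by gene identifier. The replicate numbers follow the order of deposit and pair no mice. Libraries of a group differed by more than sampling noise, and whether they were prepared together is not given in the sources used here.

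The 9 genes, the other lists and the tests were chosen with earlier results of these data known. The text names the 9 genes, in each other list the lowest and the highest log2 fold change and any gene past the threshold, genes whose role is given, and the 10 genes most like the 9 in pattern. A few genes that this rule would name are not reported here.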

Additional observations from a re-analysis of the deposited data

Results flagged for a closer look

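In 8 of 44 groups of values examined (each of the 9 genes and 13 ratios in each genotype), 1 mouse lay far from the others, and chance alone marks about 1 in 20 groups. In every case it was BMAd-DTA replicate 3, with the lowest value of its group, and the groups are not independent, since they share libraries and genes. The gap to the next library, as a part of the range of the 7 BMAd-DTA mice, was 0.5682 for log2 CPM of Vpreb1, 0.641 for Vpreb3, 0.691 for Igll1 and 0.739 for Rag2. For log2 ratios it was 0.594 for Igll1 to Cd79b, 0.607 for Rag1 to Cd79b, 0.750 for Rag2 to Cd79b and 0.623 for Igll1 to Ms4a1. The value for Vpreb1 is at Dixon's critical value for 7 samples. In the same library the summed CPM of the mature B cell list was 975, within the range of both groups, and the summed CPM of the 3 recombination genes was 19.8. Why this mouse differed was not tested.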

How the results depend on the processing

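Under 10 alternatives other than leaving out a library, all 90 log2 fold changes of the 9 genes kept their sign and none was called. Their size moved by over 1.5 times for Rag1, from 0.17 to 0.02 with limma-voom and 0.08 with the muscle score, and for Rag2, from 0.23 to 0.13 with limma-voom. Of 99 values with a library left out, 95 did so and 4 changed sign. Dntt then ranged from -0.037 to 0.76 and Rag1 from -0.054 to 0.40. The number of genes called over the whole table was 13 in the edgeR fit, 845 with DESeq2, 20 with limma-voom, 20 with RLE scaling, 3 with a muscle score, 421 at an adjusted p under 0.1, and 0 to 292 with a library left out (292 without Control replicate 3). With DESeq2 the calls were 1 among niche factors, 1 among recombination partners, 4 erythroid, 2 adipocyte, 7 osteoblast and 10 proliferation genes, and with the muscle score 0 osteoblast genes. With a library left out they were 0 to 1 for T cell, erythroid and adipocyte genes, 0 to 2 for plasmacytoid dendritic cell genes, and 0 to 3 for osteoblast and for proliferation genes. The log2 fold change of Cd72 was -0.0131 with limma-voom and -0.0799 with the muscle score, and that of Myh2 was 0.70 with the latter. With a library left out, sign changes gave ranges of -0.18 to 0.18 for Cd72, -0.91 to 0.78 for Myh2, -0.11 to 0.10 for Cxcl12, -0.12 to 0.12 for Il7, -0.19 to 0.0023 for Bst2, -0.0083 to 0.18 for Mpo and -0.0029 to 0.32 for Dpp4. Without BMAd-DTA replicate 3, an omission added after the data were seen, the log2 ratio Igll1/Cd79b differed by 0.13 between the groups. By Spearman's correlation 6 of the 10 genes most like the 9 stayed. The causes of these shifts were not tested. No paired analysis was possible because the replicate numbers follow the order of deposit. Depth limits Vpreb2 and Rag2 most, with as few as 14 and 16 read pairs in a library.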
